A study of Mus musculus with 8 samples.

Results

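The genes described here are 10 genes that carry or report BMP and TGF-beta signalling: the ligands *Bmp4*, *Bmp7* and *Tgfb2*, the signalling inhibitors *Smad6*, *Smad7* and *Bambi*, and the nuclear targets *Id1*, *Id2*, *Id3* and *Id4*. They were listed by name, with earlier results of these data known, and each of the 10 was found among the 54532 genes of the count table. Bulk RNA-seq had compared retinas of *Mettl3*-CKO mice (*Six3-Cre*+; *Mettl3* floxed/floxed) with retinas of control mice, with 4 libraries in each group. *Mettl3* encodes the catalytic subunit of the complex that writes N6-methyladenosine on mRNA. The sample labels and the results text of the study give the age of both groups as day 7 after birth, whereas its methods give day 6. The labels name the controls only as control, and the exact alleles that these animals carried are not given in the sources used here. *Six3-Cre* acts in retinal progenitor cells and is most effective in the central retina, so that cells of other origin, such as endothelial cells and microglia, are not targeted. The labels do not say whether each library came from 1 animal, and p-values therefore measure the spread between these libraries.

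BMP and TGF-beta ligands are secreted dimers that bind pairs of serine/threonine kinase receptors. Receptors for BMPs phosphorylate Smad1, Smad5 and Smad9, and receptors for TGF-beta and activin phosphorylate Smad2 and Smad3. The phosphorylated Smads enter the nucleus with Smad4 and change transcription. The Id genes are classical direct targets of BMP signalling and encode helix-loop-helix proteins that lack a DNA-binding domain and sequester E proteins, the partners of proneural factors. *Smad6*, *Smad7* and *Bambi* are induced by the same pathways and dampen them, which makes them both readouts and brakes. In the eye, BMP signalling is known for its roles in dorsoventral patterning of the retina and in glial development.

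The 8 libraries held 16227095 to 20281517 counts, and 3 counts corresponded to 0.147 to 0.184 CPM (counts scaled to the library total by edgeR's TMM method, as for all CPM values here). The targeted gene *Mettl3* was at 21.1, 29.6, 21.3 and 24.3 CPM in *Mettl3*-CKO libraries 1 to 4 and at 33.8, 32.5, 29.4 and 29.3 CPM in control libraries 1 to 4. Its log2 fold change was -0.38 (SE 0.12), with an adjusted p of 0.0602 in edgeR's quasi-likelihood test, and 0.032 in DESeq2. *Mettl3* overlaps *Tox4* on the opposite strand (mean of 1651 counts per library), and since the strand setting of the counting is not given in the sources used here, reads of overlapping genes on opposite strands may not be told apart. A pair of control libraries stood apart from the rest in markers of other tissues. Control library 4 had a summed level of 3259 CPM over 13 lens markers, against 7.87 to 71.1 CPM in the other 7 libraries. The summed level of 17 endothelial markers other than *Kdr* was highest in control library 1, at 102 CPM. It was 44.9 to 50.6 CPM in the other control libraries and 25.3 to 34.1 CPM in the *Mettl3*-CKO libraries. The groups therefore did not overlap in this sum, with or without control library 1. Control library 1 also differed from the other control libraries in retinal markers. Its summed level was 6243 against 4285 to 4766 CPM for rod markers and 3226 against 2437 to 2670 CPM for Müller glial markers. For cycling progenitor markers it was 2405 against 2873 to 3163 CPM. Each BMP or TGF-beta pathway gene below whose call changed without control libraries 1 and 4 is therefore given with and without them. Calls in the marker lists are given from all 8 libraries only, so their dependence on this pair is not shown.

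*Smad7* was the only one of the 10 genes whose difference passed the test. It was higher in *Mettl3*-CKO retinas by 1.86-fold (95% interval 1.54 to 2.24). The remaining 9 genes, including the other inhibitors, the ligands and the Id targets, did not pass an adjusted p of 0.05. Among all 17998 genes tested, 1897 passed (10.5%), 1168 of them higher (6.49%) and 729 lower (4.05%), so that 1 call among 10 genes is near the share over all genes. All 10 genes passed the filter on low counts. Their median log2 fold change was 0.07, against -0.01 over all genes tested, with 7 positive and 3 negative values. In the plot of the levels by library, the groups of only *Smad7* and *Id3* did not overlap, 2 of 10 genes beside 17.4% of all genes tested (1 higher beside 9.77%, 1 lower beside 7.58%). At an unadjusted p under 0.05 there were 4 of 10 genes (*Smad7*, *Id3*, *Id2* and *Bambi*), against 24.6% of all genes. In bulk tissue, a difference in the number of cells of a type and a difference in RNA per cell cannot be told apart.

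**Figure D1:**
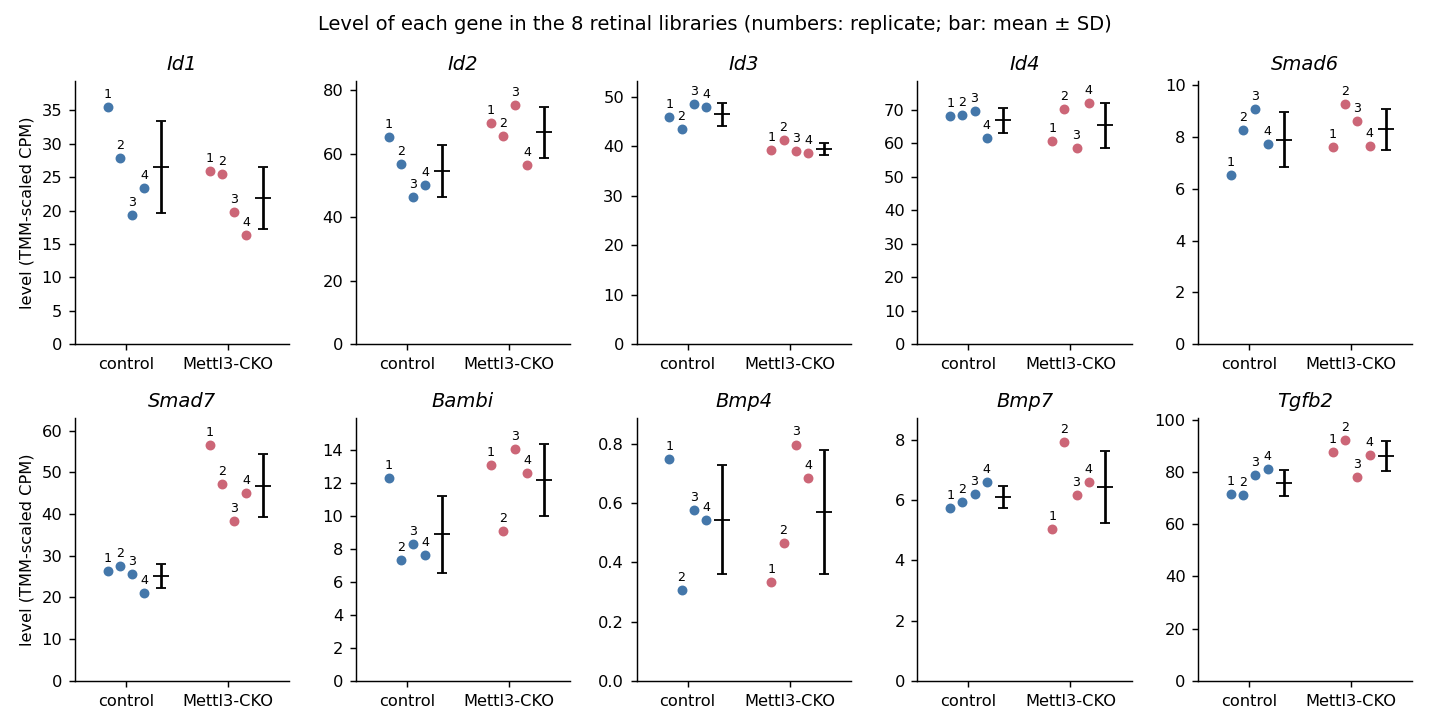
Level of the 10 genes in CPM (vertical axes, each starting at 0) in the control (blue) and Mettl3-CKO (red) libraries; each point is 1 library with its replicate number, and the bars give the mean ± SD of 4 libraries. The Smad7 libraries lie between 38.4 and 56.6 CPM in the Mettl3-CKO group and between 21.0 and 27.6 CPM in the control group. The groups of Id3 do not overlap either, whereas those of all other genes shown overlap.

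The inhibitors were examined first, since they include the gene that rose. *Smad7* encodes an inhibitory Smad that binds activated receptors and recruits the ubiquitin ligases Smurf1 and Smurf2 to them, and it acts on both the TGF-beta and the BMP branch. It lies on chromosome 18 from 75367529 to 75395935 (GRCm38, plus strand), and no annotated gene overlaps it. *Mettl3*-CKO libraries 1 to 4 had 56.6, 47.1, 38.4 and 45.0 CPM of *Smad7*, from 1024, 812, 723 and 921 counts. Control libraries 1 to 4 had 26.3, 27.6, 25.7 and 21.0 CPM, from 491, 451, 490 and 348 counts. Every *Mettl3*-CKO library was above every control library, and the spread was wider in the *Mettl3*-CKO group, in which library 1 was the highest. The means were 46.8 ± 7.53 and 25.2 ± 2.86 CPM (SD, n = 4), with a log2 fold change of 0.89 (SE 0.12) and an adjusted p in edgeR's quasi-likelihood test of 0.00116. By p-value it ranked 124th of the 17998 genes. Without control libraries 1 and 4 the log2 fold change was 0.81, with an adjusted p of 0.00302 in edgeR.

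*Smad6* encodes the inhibitory Smad that acts mainly on the BMP branch, and it did not move with *Smad7*. Its gene lies on chromosome 9 from 63953076 to 64022059 (minus strand). It had 7.63, 9.28, 8.61 and 7.67 CPM in *Mettl3*-CKO libraries and 6.53, 8.27, 9.07 and 7.74 CPM in control libraries. These ranges overlapped, with means of 8.30 ± 0.794 and 7.90 ± 1.07 CPM (SD, n = 4). The log2 fold change of *Smad6* was 0.07 (SE 0.14, 95% interval -0.24 to 0.38), with an adjusted p of 0.821 in edgeR. Its sign turned to -0.07 without control libraries 1 and 4. Set against each other within a library, the CPM of *Smad7* was 4.46 to 7.42 times that of *Smad6* in the *Mettl3*-CKO group and 2.72 to 4.02 times in the control group, so the ratios of the groups did not overlap. The CPM groups of *Smad7* alone did not overlap either, as for 17.4% of all genes tested, so the ratio adds no separate result.

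*Bambi* encodes a pseudoreceptor that resembles a type I receptor but lacks the kinase domain, and so blocks signalling by BMP, activin and TGF-beta. It lies on chromosome 18 from 3507957 to 3516404 (plus strand). It had 13.1, 9.05, 14.0 and 12.6 CPM in *Mettl3*-CKO libraries 1 to 4 and 12.3, 7.29, 8.29 and 7.61 CPM in control libraries 1 to 4. Control library 1 lay among the *Mettl3*-CKO libraries, while the other 3 control libraries were below all 4 of them. The means were 12.2 ± 2.17 and 8.87 ± 2.33 CPM (SD, n = 4), and the log2 fold change was 0.46 (SE 0.19, 95% interval 0.05 to 0.86), with an adjusted p of 0.151 in edgeR. Leaving out control library 1 gave a log2 fold change of 0.66 and an adjusted p of 0.00996 in edgeR, and without control libraries 1 and 4 the values were 0.64 and 0.0385. With limma voom and sample quality weights they were 0.65 and 0.0055. Whether *Bambi* passed the test in edgeR therefore depended on control library 1.

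The 4 Id genes moved in no common direction, and none passed the test. *Id2* was at 69.6, 65.5, 75.3 and 56.4 CPM in *Mettl3*-CKO libraries 1 to 4 and at 65.2, 56.7, 46.3 and 50.1 CPM in control libraries 1 to 4. *Mettl3*-CKO library 4 fell within the control range, and control library 1 was close to *Mettl3*-CKO library 2. Its means were 66.7 ± 7.93 and 54.6 ± 8.26 CPM (SD, n = 4), with a log2 fold change of 0.29 (SE 0.12, 95% interval 0.03 to 0.55) and an adjusted p of 0.158 in edgeR. Without control library 1 the log2 fold change of *Id2* was 0.39 with an adjusted p of 0.0205 in edgeR, and in limma voom it was 0.36 with an adjusted p of 0.0221. Without control libraries 1 and 4 it was 0.37, with an adjusted p of 0.0744 in edgeR. *Id2* lies on chromosome 12 from 25093799 to 25097140 (minus strand).

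*Id3* had the smallest spread of the 10 genes, with coefficients of variation of 3.02% in the *Mettl3*-CKO group and 4.93% in the control group. It was measured at 39.2, 41.2, 38.9 and 38.6 CPM in *Mettl3*-CKO libraries and 45.8, 43.4, 48.4 and 47.9 CPM in control libraries, so that all *Mettl3*-CKO libraries were below all control libraries. The means were 39.5 ± 1.19 and 46.4 ± 2.29 CPM (SD, n = 4). The log2 fold change of *Id3* was -0.23 (SE 0.08, 95% interval -0.40 to -0.06), and its adjusted p was 0.0810 in edgeR and 0.0540 in DESeq2, on the far side of the threshold in both. In limma voom it was 0.0354, with a log2 fold change of -0.24. *Id3* lies on chromosome 4 from 136143497 to 136145755 (plus strand).

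*Id1*, on chromosome 2 from 152736251 to 152737410 (plus strand), varied most within the Id family. It was found at 26.0, 25.5, 19.8 and 16.4 CPM in *Mettl3*-CKO libraries and 35.5, 27.9, 19.4 and 23.3 CPM in control libraries, with control library 1 the highest. The coefficient of variation was 26.2% in the control group, and the log2 fold change of -0.28 (SE 0.19, 95% interval -0.68 to 0.13) had an adjusted p of 0.404 in edgeR. Without control library 1 the log2 fold change of *Id1* was -0.10. *Id4*, on chromosome 13 from 48261228 to 48266026 (plus strand), was at 60.7, 70.4, 58.8 and 72.0 CPM in *Mettl3*-CKO libraries and at 68.2, 68.5, 69.8 and 61.5 CPM in control libraries. The groups of *Id4* overlapped throughout, and its log2 fold change was -0.03 (SE 0.09, 95% interval -0.24 to 0.17), with an adjusted p of 0.873 in edgeR. Antisense genes of few counts overlap *Id4* (means of 3.25 and 2.63 counts per library).

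Per length, the Id genes were the most highly expressed of the 10 genes. In the control group, *Id3* was at 25.9 FPKM (CPM per kilobase of the deposited gene length), *Id1* at 22.9, *Id2* at 22.4 and *Id4* at 17.4 FPKM. *Tgfb2* followed at 13.1 FPKM and *Smad7* at 5.56 FPKM. *Smad6* was at 2.47, *Bambi* at 1.76, *Bmp7* at 1.52 and *Bmp4* at 0.242 FPKM. Neighbours in this order whose control libraries overlapped were *Id3* and *Id1*, *Id1* and *Id2*, *Smad6* and *Bambi*, and *Bambi* and *Bmp7*. In the *Mettl3*-CKO group *Id2* stood first, at 27.4 FPKM, before *Id3* at 22.0 and *Id1* at 18.9 FPKM, and *Smad7* was at 10.3 FPKM.

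The summed level of the 4 Id genes was similar in both groups, at 85.3 ± 5.64 FPKM (77.5 to 90.1) in *Mettl3*-CKO libraries and 88.6 ± 8.81 FPKM (80.9 to 100.6) in control libraries (SD, n = 4). *Id2* made up 29.8% to 36.3% of the sum in the *Mettl3*-CKO group and 23.5% to 26.6% in the control group, and these ranges did not overlap, while its CPM groups did and its fold change did not pass the test. For comparison, the CPM groups of 17.4% of all genes tested did not overlap. The shares of *Id1* (18.2% to 25.3% against 20.6% to 30.4%), *Id3* (24.7% to 27.8% against 25.4% to 33.4%) and *Id4* (17.8% to 24.1% against 17.6% to 22.4%) overlapped. These shares sum to a fixed total within a library, so a higher share of *Id2* lowers the others, and no test was run on them.

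**Figure D2:**
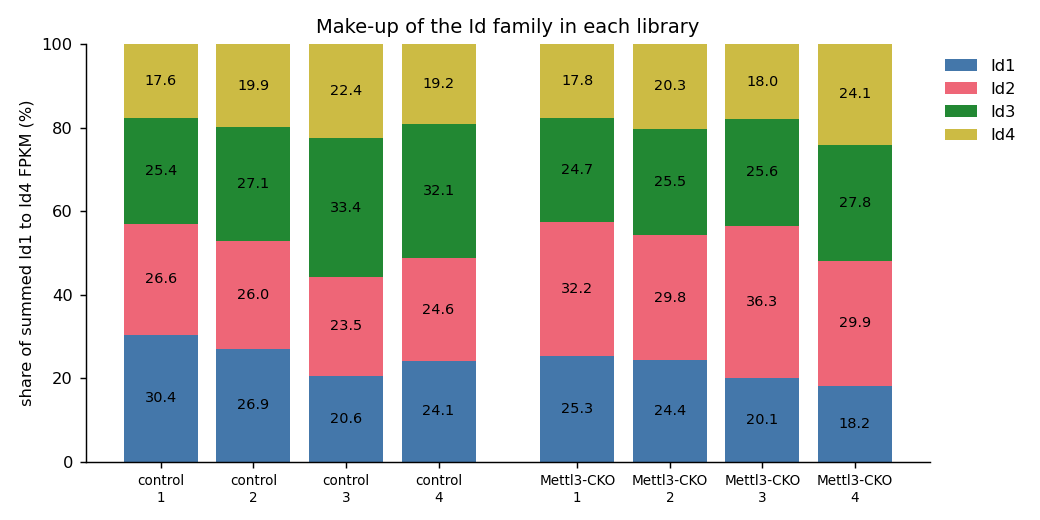
Share of each Id gene (vertical axis, percent) in the summed FPKM of Id1 to Id4, with 1 bar per library. The Id2 segment runs from 29.8% to 36.3% in the Mettl3-CKO libraries and from 23.5% to 26.6% in the control libraries.

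Promoter letters of the Id genes and of *Smad6* are shown because these genes are read as Smad targets. GGCGCC is a GC-rich palindrome found in BMP-responsive elements of Id promoters, and GTCTAGAC is the palindrome bound by Smads in vitro. Promoters of 300 bases, 250 of them before the start site, were taken from RefSeq (GRCm38.p6), with entries used for 6 of the 10 genes (*Id2*, *Id3*, *Id4*, *Smad6*, *Bmp4* and *Tgfb2*). *Id1*, *Smad7*, *Bambi* and *Bmp7* are named only. Both strands were searched, the matches below do not overlap each other, and capitals mark them. RefSeq start sites can differ from the gene bounds of the count table. The stretch of *Id2* is at chr12:25096306-25096335 (minus strand), that of *Id4* at chr13:48260956-48260985 (plus strand) and that of *Smad6* at chr9:64022056-64022085 (minus strand).
*Id2*: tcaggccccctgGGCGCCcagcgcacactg
*Id4*: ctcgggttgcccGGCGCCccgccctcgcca
*Smad6*: agcgccgcggagccgccaaagtGTCTAGAC
GGCGCC began 231 bases before the start site of *Id2* and 148 bases before that of *Id4*, and 11.9% of 32851 promoters of the same length hold it. GTCTAGAC began 4 bases before the start site of *Smad6*, and 0.213% of promoters hold it. The shorter GTCTG, found in 49.6% of promoters, had 2 matches each in *Id3* and *Tgfb2*. The *Id2* and *Id4* promoters share GGCGCC, and the log2 fold changes of these genes were 0.29 and -0.03.

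None of the 3 ligands passed the test. *Tgfb2*, the ligand with the highest level of the 3, was at 87.5, 92.2, 78.2 and 86.5 CPM in *Mettl3*-CKO libraries and at 71.6, 71.3, 78.7 and 81.3 CPM in control libraries. Only *Mettl3*-CKO library 3 fell into the control range. The means were 86.1 ± 5.82 and 75.7 ± 5.03 CPM (SD, n = 4), and the log2 fold change was 0.19 (SE 0.09), with an adjusted p of 0.211 in edgeR. *Tgfb2* lies on chromosome 1 from 186622792 to 186705989 (minus strand), where it overlaps a pair of genes with means of 5.25 and 1.88 counts per library.

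*Bmp7*, on chromosome 2 from 172868012 to 172940321 (minus strand), was at 5.03, 7.94, 6.16 and 6.60 CPM in *Mettl3*-CKO libraries and at 5.72, 5.94, 6.19 and 6.59 CPM in control libraries. The control values lay inside the *Mettl3*-CKO range, and the log2 fold change was 0.07 (SE 0.16, 95% interval -0.27 to 0.42), with an adjusted p of 0.832 in edgeR. *Bmp4*, which marks the dorsal retina early in development, was close to the limit of detection. It lies on chromosome 14 from 46383520 to 46390669 (minus strand) and had 6, 8, 15 and 14 counts in *Mettl3*-CKO libraries and 14, 5, 11 and 9 counts in control libraries. Its means were 0.569 ± 0.210 and 0.544 ± 0.182 CPM (SD, n = 4). With so few counts the interval of its log2 fold change ran from -0.80 to 0.93 around 0.06, so that a difference of the size of that of *Smad7* was not detectable.

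**Figure D3:**
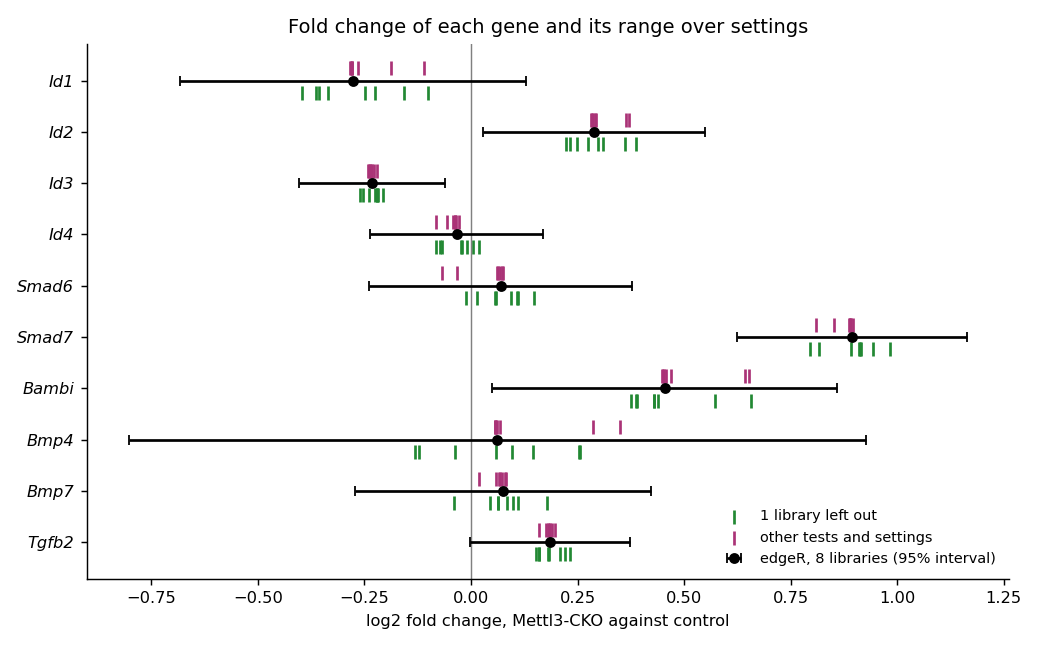
Log2 fold change of the 10 genes, Mettl3-CKO against control (horizontal axis); black points are edgeR estimates from 8 libraries with 95% intervals, green ticks the estimates with 1 library left out and purple ticks those of other tests and settings. The interval of Smad7 (0.62 to 1.16) lies apart from 0 with every tick at 0.79 or above, and the intervals of Id2, Id3 and Bambi exclude 0 before adjustment over all genes.

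The other genes of these pathways were read from lists of 95 genes by role, of which 80 passed the filter. Of the 80, 4 were higher and 4 lower, together 10% beside the 10.5% of all genes tested, and the median log2 fold change was -0.01, as over all genes. Groups did not overlap for 14 of the 80 genes (17.5%, beside 17.4% of all genes). These lists therefore held calls about as often as the rest of the genes.

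Among ligands, 8 of 13 BMP and GDF genes were tested, with 0 higher, 1 lower and a median log2 fold change of 0.20. The lower one was *Bmp3*, an atypical BMP that antagonises other BMPs, at 1.33, 2.49, 3.03 and 4.79 CPM in *Mettl3*-CKO libraries and 7.01, 5.14, 7.97 and 7.13 CPM in control libraries. Every *Mettl3*-CKO library was below every control library, and the log2 fold change of *Bmp3* was -1.22 (SE 0.29), with an adjusted p of 0.0211 in edgeR. The call was lost when *Mettl3*-CKO library 1, 2 or 3 or control library 3 was left out (adjusted p 0.0550 to 0.0620 in edgeR). Of the TGF-beta and activin ligands, 6 of 10 were tested, with 1 higher, 0 lower and a median of -0.05. The higher one was *Inha*, the inhibin alpha subunit, whose dimers with beta subunits oppose activin, at 29.2 ± 2.65 against 20.9 ± 2.52 CPM (SD, n = 4; log2 fold change 0.48, SE 0.11, adjusted p 0.0177 in edgeR). The *Inha* call was lost without *Mettl3*-CKO library 1 or control library 2 (adjusted p 0.0580 and 0.0546 in edgeR). *Inhbb*, the activin beta B subunit, was at 19.5 FPKM in the *Mettl3*-CKO group and 20.6 FPKM in the control group and did not pass the test. *Inha* was at 19.8 and 14.2 FPKM in these groups.

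All 17 receptors and co-receptors were tested, with 0 higher, 1 lower and a median log2 fold change of 0.03. The receptors with the highest levels did not pass the test. *Bmpr1a*, a type I BMP receptor, was at 23.9 FPKM in the *Mettl3*-CKO group and 21.5 FPKM in the control group (log2 fold change 0.15, 95% interval -0.06 to 0.36, adjusted p 0.378 in edgeR). *Tgfbr1*, a type I TGF-beta receptor, was at 26.5 and 24.5 FPKM, and *Neo1*, a receptor for the BMP co-receptors of the RGM family, at 29.7 and 25.7 FPKM. *Acvr1b*, a type I activin receptor, had a log2 fold change of -0.29 with an adjusted p of 0.0936 in edgeR. The receptor that fell was *Eng* (endoglin), a co-receptor of endothelial cells, at 0.940, 1.45, 1.17 and 1.86 CPM in *Mettl3*-CKO libraries and 6.85, 2.63, 2.05 and 2.84 CPM in control libraries. Its log2 fold change was -1.40 (SE 0.38), with an adjusted p of 0.0333 in edgeR, and -0.78 with an adjusted p of 0.131 without control libraries 1 and 4. With the replicate number as a block its adjusted p was 0.0616, and without *Mettl3*-CKO library 1, 2 or 3 it was 0.127, 0.0747 or 0.0924. *Eng* overlaps *Fpgs* on the opposite strand (mean of 564.5 counts per library), so its value is uncertain. Of 14 endothelial markers tested, 9 were lower and 0 higher, with *Kdr* at 481 to 624 CPM in all libraries, and the part of these cells in the *Eng* result was not tested.

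Of the extracellular antagonists and modulators, 17 of 20 were tested, with 2 higher, 1 lower and a median log2 fold change of -0.01. *Nog* encodes noggin, which binds BMP ligands and keeps them from their receptors, and it had the largest positive log2 fold change of the 80 pathway genes. It was at 4.09, 3.42, 2.87 and 2.44 CPM in *Mettl3*-CKO libraries, from 50 to 74 counts, and at 0.803, 1.71, 1.21 and 0.906 CPM in control libraries, from 15 to 28 counts. The groups of *Nog* did not overlap, and its level was 2.77-fold higher (log2 fold change 1.47, SE 0.28, adjusted p 0.00698 in edgeR). *Fstl1*, a secreted follistatin-like protein that binds BMP4, was at 94.0 ± 13.2 against 69.3 ± 5.48 CPM (SD, n = 4; log2 fold change 0.44, SE 0.11, adjusted p 0.0234 in edgeR). The call for *Fstl1* was lost when *Mettl3*-CKO library 1 or 3 or control library 2, 3 or 4 was left out (adjusted p 0.0527 to 0.0953 in edgeR).

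*Htra1*, a secreted serine protease that binds TGF-beta family ligands, was the antagonist with the highest level per length and fell. It was at 64.7, 62.0, 80.7 and 107 CPM in *Mettl3*-CKO libraries and at 180, 137, 123 and 128 CPM in control libraries, without overlap. Its log2 fold change was -0.85 (SE 0.17), with an adjusted p of 0.00858 in edgeR. *Htra1* overlaps *Fgfr2* on the opposite strand, which had a mean of 41.5 counts per library. *Htra1* and *Nog* kept their calls at 0.05 in every setting tried. Markers of several cell types moved with genotype beside these genes. Of 11 Müller glial markers tested, 2 were lower and 1 higher, with summed levels of 2350 to 2586 CPM in the *Mettl3*-CKO group and 2437 to 3226 CPM in the control group. Of 12 cycling progenitor markers, 4 were higher and 0 lower (3221 to 4374 against 2405 to 3163 CPM), and of 10 rod markers 0 were higher and 6 lower (2476 to 4258 against 4285 to 6243 CPM). Of 7 astrocyte markers 0 were higher and 3 lower (364 to 395 against 415 to 499 CPM). Of 9 retinal pigment epithelium markers tested 0 were higher and 4 lower (64.0 to 87.7 against 96.4 to 129 CPM), and of 3 erythrocyte markers tested 0 were higher and 2 lower (4.29 to 7.33 against 14.0 to 26.4 CPM). Groups did not overlap in the summed levels of the progenitor, rod, astrocyte, pigment epithelium and erythrocyte lists. The same held for the endothelial markers without *Kdr*, which were lower in the *Mettl3*-CKO group, whereas the endothelial sums with *Kdr* overlapped. Summed levels overlapped for 8 pericyte markers tested (2 higher, 2 lower) and 6 ciliary margin markers (1 higher, 1 lower). They also overlapped for 8 lens markers (0 higher, 4 lower), 3 mesenchyme and cornea markers and 8 microglial markers tested. The last pair of lists held 0 calls in edgeR, with 1 gene each at an unadjusted p under 0.05. Pericyte and microglial sums overlapped only through control library 1, at 91.9 and 152 CPM. The other control libraries (43.5 to 54.0 and 51.0 to 77.8 CPM) were below the *Mettl3*-CKO libraries (54.3 to 72.6 and 86.6 to 119 CPM). All 8 microglial log2 fold changes were positive. Of the pericyte ones 2 were positive, among them *Notch3* (29.9 to 51.9 against 10.6 to 16.8 CPM), and 6 negative. The lens sum was 71.1, 12.8, 7.87 and 3259 CPM in control libraries 1 to 4 and 9.51 to 24.2 CPM in the *Mettl3*-CKO libraries. Lens calls were not tested without control library 4 and are not read as a difference between the genotypes. The part of these cell types in the results for *Smad7*, *Nog*, *Htra1* and the other genes was not tested.

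All 16 genes of the list of Smads and Smad co-regulators, which leaves out the inhibitory *Smad6* and *Smad7*, were tested, with 1 higher, 0 lower and a median log2 fold change of 0.00. *Smad4*, the common partner, was at 32.8 and 35.2 FPKM in the *Mettl3*-CKO and control groups. *Smad5* had a log2 fold change of 0.00 (95% interval -0.20 to 0.20) and *Smad1* of -0.01 (95% interval -0.18 to 0.17), both effectors of the BMP branch. *Smad2*, an effector of the TGF-beta branch, had -0.16 (95% interval -0.35 to 0.03). The gene that rose was *Zfyve9*, also called SARA, which anchors Smad2 and Smad3 to TGF-beta receptors at endosomes. It was at 82.7, 66.0, 81.8 and 74.5 CPM in *Mettl3*-CKO libraries and 68.7, 54.9, 56.2 and 58.1 CPM in control libraries. Its groups overlapped at control library 1, and its log2 fold change was 0.36 (SE 0.10) with an adjusted p of 0.0440 in edgeR, close to the threshold. The *Zfyve9* call was lost when any library other than control library 1 or *Mettl3*-CKO library 2 was left out (adjusted p 0.0804 to 0.147 in edgeR).

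Of 16 other genes known to respond to these pathways, 13 were tested, with 0 higher, 1 lower and a median log2 fold change of -0.06. The gene that fell was *Col4a1*, a basement membrane collagen, at 44.4, 47.2, 45.0 and 42.4 CPM in *Mettl3*-CKO libraries and 94.3, 51.2, 52.4 and 65.9 CPM in control libraries. Control library 1 stood highest, and the log2 fold change of -0.56 (SE 0.16, adjusted p 0.0470 in edgeR) was -0.21 with an adjusted p of 0.174 without control libraries 1 and 4. With the replicate number as a block the adjusted p of *Col4a1* was 0.0586, and without any 1 *Mettl3*-CKO library or control library 4 it was 0.0884 to 0.138. *Col4a1* overlaps *Col4a2* on the opposite strand (mean of 828 counts per library), so its value is uncertain. *Pmepa1*, a feedback inhibitor induced by TGF-beta, did not pass the test and varied from 62.2 to 210 CPM among the control libraries. The E proteins, which Id proteins sequester, gave 0 calls in 3 tested genes at an adjusted p under 0.05 and 0 at an unadjusted p under 0.05 in edgeR, with a median log2 fold change of -0.03, and *Tcf3* was at 38.4 and 40.0 FPKM.

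**Figure D4:**
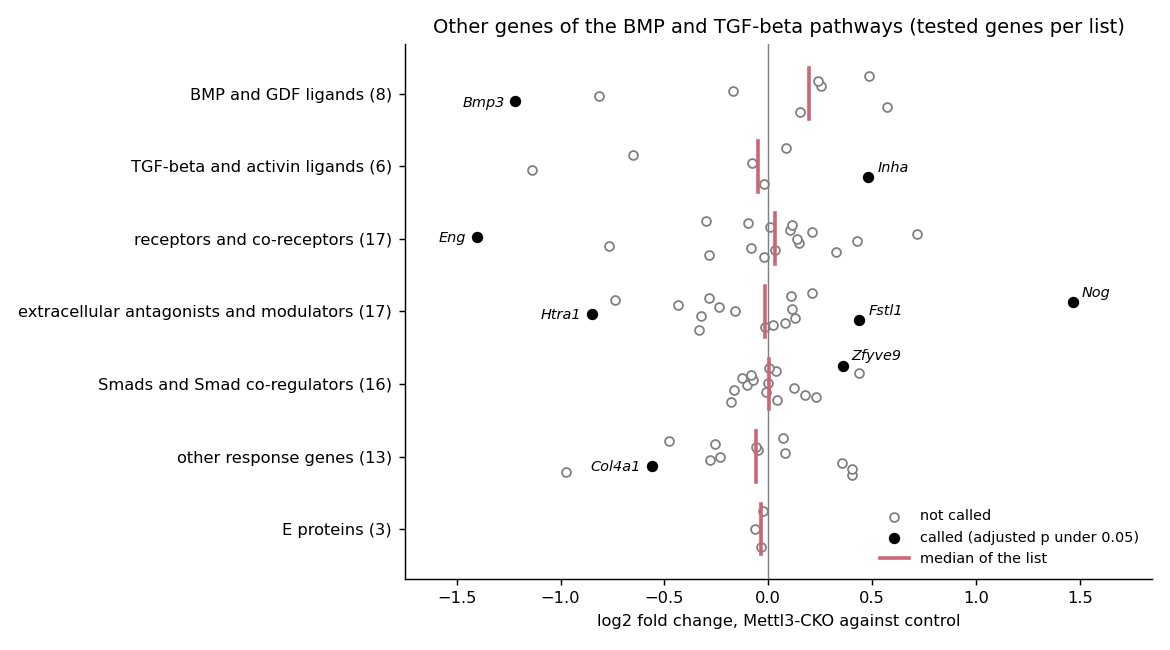
Log2 fold change, Mettl3-CKO against control (horizontal axis), of the 80 tested pathway genes by list (vertical axis, number of tested genes in brackets); filled points passed an adjusted p of 0.05 in edgeR, open points did not, and red bars are list medians, between -0.06 and 0.20. Nog at 1.47 and Eng at -1.40 are the outermost points.

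Among all tested genes, the pair whose profile over the 8 libraries lay nearest to that of *Smad7* was *Mb21d2* and *Gm47573*. Likeness was the Euclidean distance between log2 CPM profiles centred on their means, which was 0.229 for *Mb21d2* and 0.314 for *Gm47573*. *Mb21d2* was at 35.2 ± 6.03 against 18.5 ± 1.36 CPM (SD, n = 4; log2 fold change 0.93, SE 0.12, adjusted p 0.000921 in edgeR). *Gm47573* was at 6.07 ± 1.11 against 3.31 ± 0.235 CPM (log2 fold change 0.87, SE 0.17, adjusted p 0.00865 in edgeR).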

How the data were processed

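RNA was measured in 4 control and 4 *Mettl3*-CKO retinal libraries, grouped by their labels. According to the methods, the authors aligned the paired reads against GRCm38 (Hisat2) and used featureCounts to assign them to genes. The annotation release and the strand setting are not given in the sources used here. The authors deposited unscaled read counts for 54532 genes, with the length of each gene. The floor of 3 counts covers counting error only, and no pair of libraries was alike within sampling noise (lowest chi-square 5.01 per gene).

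From the counts, 17998 genes were kept by filterByExpr, scaled by TMM and tested in R 4.3.3 with edgeR 4.0.16 (glmQLFit, glmQLFTest), with Benjamini-Hochberg adjustment over all of them and a threshold of 0.05. The SE is the absolute log2 fold change divided by the square root of F, and intervals are at 95%. The biological coefficient of variation was 15.0%. The study used DESeq2 on these counts, which was an alternative here (1.42.0), as were limma 3.58.1 (voom with sample quality weights), other scalings (which moved the median of all genes by less than 0.1), no filter, a threshold of 0.01, each library left out and the replicate number as a block. Leaving out control libraries 1 and 4 together was added after the data had been seen. On simulated counts for 17998 genes, with 200 changed, edgeR found 92% of the 4-fold and 75% of the 2-fold changes, and called 13 unchanged genes.

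The 10 genes, the pathway lists and the marker lists were chosen with earlier results of these data known. Named genes are the 10, every pathway gene that passed the test, the receptors, receptor-regulated Smads and antagonists with the highest FPKM, *Mettl3*, and the pair of genes nearest in profile to each member called. *Smad4*, *Inhbb*, *Smad1*, *Pmepa1* and *Tcf3* were named after their values had been seen. Endothelial markers were also summed without *Kdr*, after its level had been seen.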

Additional observations from a re-analysis of the deposited data

Results flagged for a closer look

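*Eng*, the endothelial co-receptor, was at 6.85 CPM in control library 1, and the other 3 control libraries were at 2.05 to 2.84 CPM. The gap from the highest library to the next was a larger share of the range of the group than Dixon's 95% critical value for 4 libraries allows. Groups of the 10 genes, of the called pathway genes and of *Mettl3* were tested in this way, 38 in all, of which chance would give about 1.9. Control library 1 was also highest in *Pecam1*, at 12.5 CPM against 3.44 to 4.71 CPM in the other control libraries, and in *Cdh5*, at 11.4 CPM against 2.94 to 4.22 CPM. The part of endothelial cells in the *Eng* value was not tested.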

How the results depend on the processing

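*Smad7*, *Nog* and *Htra1* passed an adjusted p of 0.05 in all 16 alternatives. With 1 library left out, the log2 fold change of *Smad7* was 0.79 to 0.98, and its adjusted p over all alternatives was 1.04e-08 to 0.00495. The number of the 10 genes called was 4 in limma voom, where *Id2* (0.36), *Id3* (-0.24) and *Bambi* (0.65) joined it, 1 to 3 with 1 library left out (3 without control library 1, with *Id2* at 0.39 and *Bambi* at 0.66), and 2 without control libraries 1 and 4, with *Bambi* at 0.64. In the other alternatives it was 1. With 1 library left out, log2 fold changes ranged from 0.22 to 0.39 for *Id2* and from 0.38 to 0.66 for *Bambi*.

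Signs turned only where the value was close to 0. *Smad6* was -0.032 in limma voom, -0.013 without control library 1 and -0.068 without control libraries 1 and 4. *Id4* was 0.0057 and 0.020 without *Mettl3*-CKO libraries 1 and 3, and its range with 1 library left out was -0.082 to 0.020. *Bmp7* was -0.040 without *Mettl3*-CKO library 2, and *Bmp4* was -0.13, -0.038 and -0.12 without *Mettl3*-CKO libraries 3 and 4 and control library 2. Their ranges with 1 library left out were -0.013 to 0.15 for *Smad6*, -0.040 to 0.18 for *Bmp7* and -0.13 to 0.26 for *Bmp4*. The cause was not tested.

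Over all genes, limma voom called 2142 higher and 1568 lower, and a threshold of 0.01 left 439 and 147. With 1 library left out, 509 to 1882 genes were higher and 185 to 1289 lower, lowest without *Mettl3*-CKO library 1 and highest without control library 1. Pathway genes called higher were 1 to 5 and those called lower 1 to 6 with 1 library left out, 1 and 1 at 0.01, and 6 higher and 7 lower in limma voom. Without control libraries 1 and 4, 2 pathway genes were lower.

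Replicate numbers are shared by the groups but name different animals or pools. Deviations of same-numbered libraries correlated at -0.114 to 0.249, and 2 of 4 *Mettl3*-CKO libraries correlated best with their own number, so the numbers were not taken to pair them. With the replicate number as a block, 1198 genes were higher and 660 lower, 1 of the 10 genes was called, and 2 pathway genes were lower. Depth limits *Bmp4*, at 5 to 15 counts, more than any other of the 10.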
